A study of Mus musculus with 14 samples.

Results

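The genes described here are 5 members of the interleukin-1 (IL-1) system of cytokines: the ligands Il1a, Il1b and Il18, the receptor antagonist Il1rn and the decoy receptor Il1r2. They were chosen by symbol, with earlier results of these data known. Each was measured by 1 of the 10012 probes of the array, of which 8983 carry a single gene symbol in the platform's annotation, and all 5 were among the 9584 probes tested. Gene expression had been measured on 14 arrays of RNA from mouse macrophages, in a study whose title concerns how the nuclear receptors PPARγ and LXR, the liver X receptor, repress Toll-like receptor responses. All cells came from female C57BL/6 mice at 6 weeks of age, and the macrophages had been elicited into the peritoneum by thioglycollate broth. Each of 7 groups had 2 arrays. The untreated group received no stimulus. One group received LPS (lipopolysaccharide, a bacterial ligand of TLR4), and another poly(I:C), a double-stranded RNA mimic that acts on TLR3. In the other 4 groups LPS or poly(I:C) was combined with the LXR agonist GW3965 or the PPARγ agonist GW7845. Neither agonist was given without a stimulus. The sources used here give neither doses nor times. The series text calls the replicates biological, without saying whether each was 1 animal or a pool, so p-values measure only the spread between these preparations.

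IL-1α and IL-1β bind the same receptor, made of Il1r1 and the accessory chain Il1rap, and signal through Myd88 and Irak kinases to NF-κB. IL-1β and IL-18 are made as inactive precursors, which caspase-1 cuts after an inflammasome forms, so that transcript level and release of active cytokine are separate steps. The IL-1 receptor antagonist encoded by Il1rn occupies the receptor without signalling, and the type 2 receptor encoded by Il1r2 binds IL-1 without passing a signal on. Macrophages are a main source of IL-1β, whose gene is silent or nearly so until a Toll-like receptor is engaged, whereas Il18 is known for a basal level in resting macrophages.

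Il1a, Il1b and Il1rn lie on chromosome 2 and Il18 on chromosome 9, with Il1r2 on chromosome 1, in RefSeq's GRCm38.p6 annotation (Il1a 129299609 to 129310186, Il1b 129364569 to 129371164, Il1rn 24336860 to 24351491, Il18 50554700 to 50581841, Il1r2 40084692 to 40125230). Their promoters are shown because 4 of the genes rose under both stimuli and no change was detectable in the fifth. For each gene the 250 bases before an annotated RefSeq start are printed, 5′ to 3′. The windows are Il1b chr2:129371140-129371389, minus strand; Il1a chr2:129309973-129310222, minus strand; Il1rn chr2:24336610-24336859, plus strand for its upstream start and chr2:24345121-24345370, plus strand for a downstream start; Il18 chr9:50554450-50554699, plus strand; and Il1r2 chr1:40085843-40086092, plus strand. Capitals mark matches to a TATA box (TATAAA, on the gene's strand) and, on both strands, to NF-κB (GGGNN then TTNCC), AP-1 (TGANTCA), interferon response (GAAA, NN, GAAA), STAT (TTCNNNGAA) and E-box (CACGTG) letters.
Il1b: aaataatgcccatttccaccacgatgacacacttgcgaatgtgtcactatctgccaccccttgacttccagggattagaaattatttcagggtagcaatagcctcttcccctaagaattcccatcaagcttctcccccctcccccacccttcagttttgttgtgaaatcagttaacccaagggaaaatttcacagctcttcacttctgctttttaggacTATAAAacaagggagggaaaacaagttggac
Il1a: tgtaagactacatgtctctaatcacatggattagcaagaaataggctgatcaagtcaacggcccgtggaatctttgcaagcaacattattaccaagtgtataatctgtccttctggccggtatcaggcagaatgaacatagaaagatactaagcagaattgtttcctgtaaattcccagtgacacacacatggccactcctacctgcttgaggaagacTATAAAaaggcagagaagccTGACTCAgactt
Il1rn upstream start: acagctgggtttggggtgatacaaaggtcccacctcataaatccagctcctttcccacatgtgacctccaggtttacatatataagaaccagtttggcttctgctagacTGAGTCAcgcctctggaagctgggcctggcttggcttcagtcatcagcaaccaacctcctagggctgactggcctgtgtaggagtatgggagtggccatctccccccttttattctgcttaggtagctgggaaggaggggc
Il1rn downstream start: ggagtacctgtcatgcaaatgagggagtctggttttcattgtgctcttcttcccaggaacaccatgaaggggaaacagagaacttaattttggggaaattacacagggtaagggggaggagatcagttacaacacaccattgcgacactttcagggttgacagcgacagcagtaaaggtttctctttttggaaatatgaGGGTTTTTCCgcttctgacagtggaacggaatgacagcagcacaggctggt
Il18: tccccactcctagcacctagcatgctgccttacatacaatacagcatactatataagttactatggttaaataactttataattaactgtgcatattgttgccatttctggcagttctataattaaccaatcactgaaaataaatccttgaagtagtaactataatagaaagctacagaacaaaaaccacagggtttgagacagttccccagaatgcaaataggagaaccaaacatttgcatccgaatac
Il1r2: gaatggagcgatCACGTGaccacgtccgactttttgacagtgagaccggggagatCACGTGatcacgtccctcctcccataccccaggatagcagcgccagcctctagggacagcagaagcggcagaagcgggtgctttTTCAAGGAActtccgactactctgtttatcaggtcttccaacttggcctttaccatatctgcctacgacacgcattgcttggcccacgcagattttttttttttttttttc

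The Il1b and Il1a windows each hold a TATA box, at 31 and 32 bases before the start, and Il1a also holds AP-1 letters at 12 bases. Among all 32851 RefSeq windows of this length, 7.59% hold TATAAA on the gene's strand and 6.75% hold TGANTCA. The upstream Il1rn window has AP-1 letters at 141 bases, and the downstream one has NF-κB letters at 51 bases, which 4.11% of windows hold. A further Il1rn start, not shown, has no match to these letters, and neither has Il18. The Il1r2 window holds STAT letters at 111 bases and E-box letters at 195 and 238 bases, found in 7.02% and 6.02% of windows. No window of the 5 genes held the interferon response letters (2.98% of all windows). The nuclear receptor half-site AGGTCA was found only in the upstream Il1rn window among the 7 annotated starts of these genes, 189 bases before the start, and is held by 14.02% of windows. It is not in capitals there. Direct repeats of AGGTCA with NNNN between the copies, the LXR type, or with N between them, the PPARγ type, were in none of the 7 and in 0.02% and 0.03% of windows. These are matches of letters in a short window, and a missing match says nothing about a factor's binding elsewhere.

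The values are linear intensities that the authors scaled so that the median probe of each array is 1. The 14 arrays fell into 2 sets of 7 by the 10th percentile of intensity, which was 0.137 to 0.271 in set A and 0.0549 to 0.0833 in set B, and each group had 1 array in each set. An additional fit with the set as a block, the array-set fit, is given where it matters. Most macrophage markers were above the array median throughout, 6 to 7 of 8 measured (12 listed), with Lyz2 at 998 to 1940. Mertk and Adgre1 had lower medians of 3.39 and 3.98, and Fcgr1 was dim, at 0.0588 to 0.347. Markers of other cells that a peritoneal lavage can hold were also seen. Of the B cell markers 4 to 5 of 6 measured (8 listed) were above the array median on every array, with a summed intensity of 11.7 to 24.6 and Cd79a at 2.60 to 8.85. For T and NK cells it was 1 to 2 of 6 measured (8 listed), with a sum of 3.38 to 8.13, and for mast cells and eosinophils 1 to 2 of 7 (8 listed), with a sum of 9.01 to 17.1, most of it Tpsb2. For mesothelium and fibroblasts it was 2 of 6 (8 listed), with a sum of 8.06 to 12.7, and for dendritic cells 0 to 1 of 2 (6 listed), with a sum of 0.321 to 1.39. Their part in the results was not tested. One library stands apart for these genes, the array GW7845 + poly(I:C) 1. On it 9 probes lay at least 4-fold below, and 28 at least 4-fold above, all 5 other stimulated arrays of its set, of 9486 probes. By the same count GW3965 + LPS 1 had 30 below and 6 above. For Il1a, Il1b, Il1rn and Il18, the differences of this array's group from untreated cells and from poly(I:C) alone are given with and without it.

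**Figure D1:**
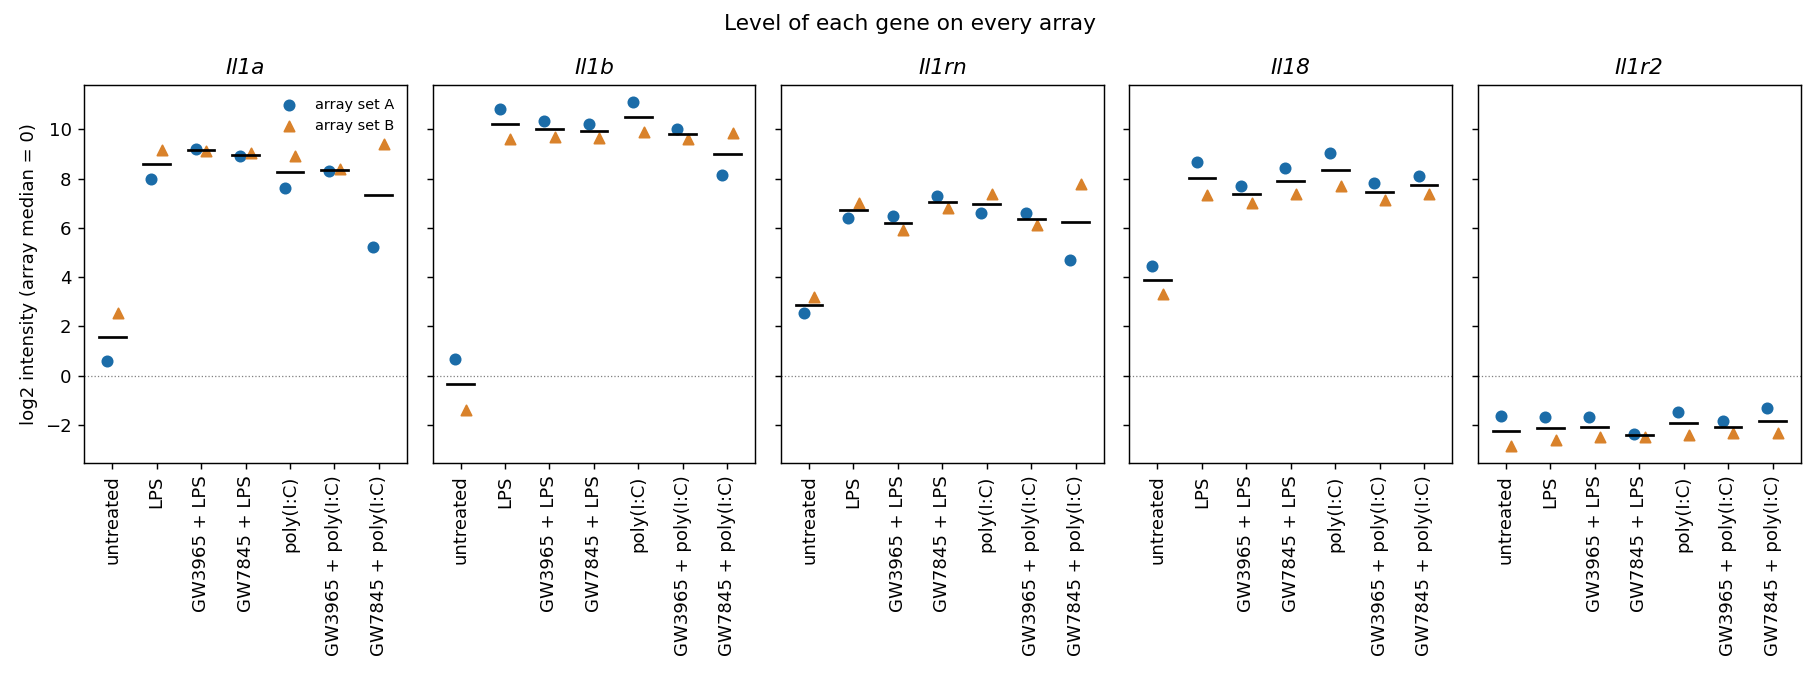
Level of each of the 5 genes on all 14 arrays, as log2 intensity with the array median at 0, by group along the horizontal axis and with the array set marked. Il1a, Il1b, Il1rn and Il18 are higher on all 12 stimulated arrays than on both untreated arrays, Il1r2 stays between -2.85 and -1.33, and GW7845 + poly(I:C) 1 is the lowest stimulated array for Il1a, Il1b and Il1rn.

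The first question was how each stimulus changed these genes. Il1a, Il1b, Il1rn and Il18 rose with LPS and with poly(I:C), from 14.5-fold for Il1rn with LPS to roughly 1850-fold for Il1b with poly(I:C), and Il1r2 did not pass the test. The count was 4 of 5 with LPS, where limma called 7.8% of all probes tested (5.21% higher), and 4 of 5 with poly(I:C), where it called 8.86% (6.08% higher). The array-set fit, described above, called the same 4 genes beside 17.8% and 18.7% of probes. The median log2 difference of the 5 genes was 4.13 with LPS and 4.48 with poly(I:C), beside 0.06 and 0.10 over all probes. The genes were chosen with earlier results of these data known, so these counts and medians describe the set without testing it. In bulk RNA of this kind, fewer cells of a type and less RNA per cell cannot be told apart.

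Il1b, the precursor of the main secreted IL-1 of macrophages, had intensities of 1.59 and 0.381 on the untreated arrays, 1840 and 794 with LPS, and 2200 and 942 with poly(I:C), set A first in each pair. The groups were far apart, and the lowest of all 12 stimulated arrays was 176 times the highest untreated one. The log2 difference was 10.60 with LPS (SE 0.73, 95% interval 9.04 to 12.16, adjusted p = 3.7e-07) and 10.85 with poly(I:C) (SE 0.73, adjusted p = 2.6e-07). Without untreated 2 these were 9.57 and 9.82, and without untreated 1 they were 11.63 and 11.89. Untreated Il1b lay at the 39.3 to 55.9 percentile of its array, a level that was not shown to be above background, so the size of the increase is approximate. On stimulated arrays Il1b ranked from 2 to 134 from the brightest probe.

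Il1a encodes the IL-1 ligand that also acts from the cell surface and the nucleus. Its untreated intensities were 1.52 and 5.85, against 254 and 581 with LPS and 198 and 492 with poly(I:C). All stimulated arrays were above both untreated arrays, with set B higher than set A in these 3 groups. Il1a rose by 7.01 with LPS (SE 1.00, 95% interval 4.87 to 9.15, adjusted p = 0.00039), or 129-fold, and by 6.71 with poly(I:C) (SE 1.00, adjusted p = 0.00048), or 105-fold. Without untreated 1 the differences were 6.04 and 5.74, and without untreated 2 they were 7.98 and 7.68, so the folds are approximate.

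Il18, the interferon-γ-inducing ligand, was already well above the array median in untreated cells, at 22.1 and 9.89. It reached 411 and 163 with LPS and 527 and 207 with poly(I:C), with set A the higher in every group. It rose by 4.13 with LPS (SE 0.61, 95% interval 2.81 to 5.45, adjusted p = 0.00056), or 17.5-fold, and by 4.48 with poly(I:C) (SE 0.61, adjusted p = 0.00025), or 22.4-fold. The differences within the sets were close to each other, at 4.22 and 4.05 with LPS and 4.57 and 4.39 with poly(I:C), and the array-set fit gave adjusted p = 4.7e-08 and 1.7e-08. With 1 array left out the differences ranged from 3.47 to 4.80 and from 3.81 to 5.15.

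Il1rn, the antagonist, had 5.76 and 9.10 on the untreated arrays, 84.9 and 131 with LPS, and 96.4 and 167 with poly(I:C). The groups did not overlap. Il1rn rose by 3.86 with LPS (SE 0.72, 95% interval 2.31 to 5.41, adjusted p = 0.0033), or 14.5-fold, and by 4.13 with poly(I:C) (SE 0.72, adjusted p = 0.0018), or 17.5-fold. Transcripts of the ligands Il1a and Il1b and of their antagonist were thus all higher after stimulation. Levels of different probes cannot be set against each other on these arrays, so no ratio of Il1rn to Il1a or Il1b is given.

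Il1r2, the decoy receptor, was dim on all arrays, at 0.139 to 0.397, or the 9.37 to 30.7 percentile of its array. Untreated values were 0.317 and 0.139, LPS values 0.314 and 0.164, and poly(I:C) values 0.357 and 0.190. The groups overlapped. The log2 difference was 0.11 with LPS (95% interval -1.38 to 1.60, adjusted p = 0.99) and 0.31 with poly(I:C) (95% interval -1.18 to 1.80, adjusted p = 0.95). At this level the probe was not shown to measure the transcript above background, so a change in Il1r2 was not detectable rather than absent. On 2 of 14 arrays it was under the 20th percentile.

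**Figure D2:**
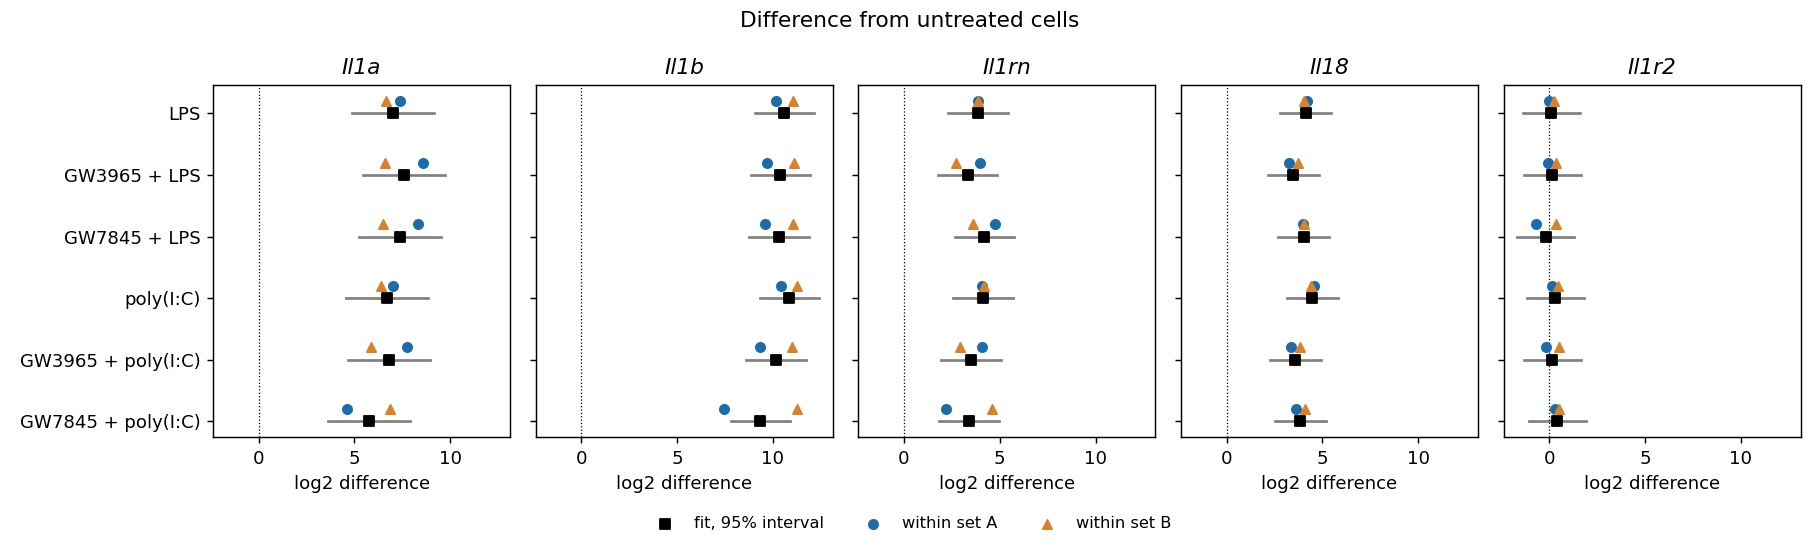
Log2 difference from untreated cells in each of the 6 stimulated groups, one panel per gene, with the 95% interval of limma. For Il1a, Il1b, Il1rn and Il18 all 6 intervals lie above 0, and for Il1r2 all 6 include 0.

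By mean log2 intensity over 2 arrays, the groups ordered differently for each gene. Il1b was highest with poly(I:C) (10.49 ± 0.87, SD) and LPS (10.24 ± 0.86), followed by GW3965 + LPS (10.03 ± 0.48), GW7845 + LPS (9.94 ± 0.42), GW3965 + poly(I:C) (9.81 ± 0.28) and GW7845 + poly(I:C) (8.99 ± 1.22), with untreated cells at -0.36 ± 1.46. Il18 was also highest with poly(I:C) (8.37 ± 0.95) and LPS (8.02 ± 0.94), and lowest of the stimulated groups with GW3965 + LPS (7.37 ± 0.48). Il1a was highest with GW3965 + LPS (9.17 ± 0.04) and Il1rn with GW7845 + LPS (7.05 ± 0.32). Neighbouring stimulated groups in these orders lay closer than the SE of a difference for that gene, except the last pair for Il1b, so the order among stimulated groups is not resolved. The Il1b mean of GW7845 + poly(I:C) comes from 8.13 in set A and 9.85 in set B. That last gap therefore rests on GW7845 + poly(I:C) 1.

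Poly(I:C) and LPS were then set against each other. None of the 5 genes passed, where limma called 0.0104% of probes (1 of 9584), and the counts at an unadjusted p under 0.05 were 52 over all probes and 301 in the array-set fit. The differences of poly(I:C) from LPS were -0.30 for Il1a, 0.25 for Il1b, 0.27 for Il1rn, 0.35 for Il18 (95% interval -0.97 to 1.67) and 0.20 for Il1r2, all with adjusted p = 1. The intervals are wide, so these values do not show that the stimuli act alike.

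With an agonist added, the stimulated groups were still above untreated cells for the same 4 genes. In each of the 4 agonist groups 4 of 5 genes were called, beside 6.06% of probes for GW3965 + LPS, 6.55% for GW7845 + LPS, 6.63% for GW3965 + poly(I:C) and 7.54% for GW7845 + poly(I:C). Il1b stood at 10.39, 10.30, 10.17 and 9.35 above untreated in that order, and Il1a at 7.59, 7.40, 6.78 and 5.74. Il1rn stood at 3.34 (adjusted p = 0.012), 4.19, 3.51 and 3.39, and Il18 at 3.49, 4.02, 3.59 and 3.85. Without GW7845 + poly(I:C) 1, the differences of that group were 10.21 for Il1b, 7.83 for Il1a, 4.93 for Il1rn and 3.49 for Il18. When the array set was also a block, they were 10.72, 7.44, 4.88 and 4.01. All 6 comparisons with untreated cells share the same 2 control arrays. Without the array GW3965 + LPS 1 the count for that group was 2 of 5, with Il1rn at 3.05 (adjusted p = 0.14) and Il18 at 3.15 (adjusted p = 0.053). Without untreated 1, Il1rn missed the threshold in GW3965 + LPS (3.01, adjusted p = 0.095), GW3965 + poly(I:C) (3.18, adjusted p = 0.067) and GW7845 + poly(I:C) (3.06, adjusted p = 0.066). It also missed it without GW3965 + LPS 2 (3.62, adjusted p = 0.052), without GW3965 + poly(I:C) 1 (3.27, adjusted p = 0.086) and without GW7845 + poly(I:C) 2 (1.84, adjusted p = 0.055), each in its own group's comparison.

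The study's main question was what the agonists do to the stimulated level. None of the 5 genes passed in any of the 4 comparisons of agonist plus stimulus with stimulus alone. Limma called 0.0313% of probes (3) for GW3965 with LPS, 0 for GW7845 with LPS, 0.0104% (1) for GW3965 with poly(I:C) and 0 for GW7845 with poly(I:C). At an unadjusted p under 0.05 the counts over all probes were 298, 138, 143 and 83, and in the array-set fit 935, 569, 594 and 362. That fit called 0.407%, 0, 0.073% and 0 of probes and none of these genes. Median differences of the 5 genes were -0.21, -0.11, -0.62 and -0.75, beside 0.03, -0.04, -0.10 and 0.03 over all probes. The agonist comparisons of one stimulus share their control arrays.

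For GW3965, Il18 showed the same direction throughout. With LPS it was 411 and 163, and with GW3965 added 210 and 131. With poly(I:C) it was 527 and 207, and with GW3965 added 225 and 140. The array with GW3965 was lower in all 4 within-set pairs, by -1.23 to -0.32 on the log2 scale, although the groups overlap when the sets are pooled. How many of all probes were lower in all 4 pairs was not counted. With GW7845, Il18 was lower in 3 of 4 such pairs (-0.94 to 0.02). The average over both stimuli was -0.77 (SE 0.43, 95% interval -1.70 to 0.16, adjusted p = 1), where limma called 0.198% of probes. In the array-set fit the SE was 0.18 and the 95% interval -1.16 to -0.38, with unadjusted p = 0.00087 and adjusted p = 0.063, which misses the threshold. That fit called 1.15% of probes. Over all probes, 431 had an unadjusted p under 0.05 without the block and 1282 with it. With quantile normalization in place of the authors' scaling, the average was -0.39 (adjusted p = 0.86).

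The neutrophil marker list moved with GW3965 too. Its summed intensity was 37.4 to 49.9 with LPS and 22.4 to 24.8 with GW3965 added, and 31.4 to 52.9 with poly(I:C) and 20 to 21.1 with GW3965 added. Untreated cells had 18.8 to 29.9. Of 12 genes 8 were measured, most of the sum was S100a8, which macrophages can also express, at 13.2 to 55.5, and Camp and Csf3r, with medians of 2.52 and 3.10, were above the array median too. The granule genes Mpo, Elane, Ltf and Ngp and the receptor Cxcr2 had medians of 0.115, 0.178, 0.223, 0.438 and 0.271. The S100a8 average with GW3965 was -1.07 (SE 0.29, adjusted p = 0.39, and 0.048 in the array-set fit). Its part in the Il18 values was not tested. Averaged over both stimuli, GW7845 gave no call among the 5 genes and 0 over all probes (161 at an unadjusted p under 0.05, and 547 in the array-set fit).

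The other members gave no common direction with GW3965. Il1b was 1320 and 825 with GW3965 + LPS and 1030 and 784 with GW3965 + poly(I:C). Its set B differences were 0.05 and -0.26 and its set A differences -0.48 and -1.10. Il1rn was 88.9 and 60.0 with GW3965 + LPS, and 97.4 and 69.9 with GW3965 + poly(I:C). In set B it was lower than with the stimulus alone, by -1.12 and -1.26, and in set A it was at 0.07 and 0.01, for mean differences of -0.53 (95% interval -2.08 to 1.02) and -0.62 (95% interval -2.17 to 0.93).

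Il1a was 585 and 564 with GW3965 + LPS, and 319 and 336 with GW3965 + poly(I:C). Its differences from the stimulus alone were 0.58 (95% interval -1.56 to 2.72) and 0.07, with 1.20 and 0.69 in set A and -0.04 and -0.55 in set B. The sets thus differed in sign for Il1a with both stimuli. Il1r2 was 0.309 and 0.178 with GW3965 + LPS and 0.278 and 0.199 with GW3965 + poly(I:C), inside the range of the other groups.

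GW7845 with LPS gave differences of either sign. Il1b was 1210 and 800, a difference of -0.30, and Il18 was 349 and 165, a difference of -0.11. Il1a was 478 and 532 and Il1rn 155 and 113, at 0.39 and 0.33 above LPS alone. No adjusted p was under 1. Il1r2 was 0.195 and 0.177.

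GW7845 with poly(I:C) is the group in which the arrays disagreed. Il1b was 280 and 922, Il1a 37.6 and 678, Il1rn 25.9 and 221, and Il18 274 and 166. The first array of this group held the lowest stimulated value of Il1a, Il1b and Il1rn, and the second held the highest of Il1a and Il1rn. The summed intensity of the neutrophil list was highest in this group, at 51.2 to 61.7 against 31.4 to 52.9 with poly(I:C) alone. That rise was in S100a8, at 55.5 and 44.2 against 42.4 and 20.4. The rest of the sum was smaller than with poly(I:C) alone, so the list did not rise as a whole. The part of S100a8-expressing cells in these values was not tested. The gap between the arrays of GW7845 + poly(I:C) was 18-fold for Il1a, 8.51-fold for Il1rn, 3.3-fold for Il1b and 1.65-fold for Il18.

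The difference from poly(I:C) alone was -1.50 for Il1b (95% interval -3.06 to 0.05, unadjusted p = 0.057, adjusted p = 1). It was -2.98 in set A and -0.03 in set B. Without GW7845 + poly(I:C) 1 it was -0.64, and -0.13 when the array set was also a block. For Il1a the difference of -0.97 became 1.12 without that array, and for Il1rn -0.75 became 0.80, so 1 array set the sign of both. For Il18 it was -0.63 and became -1.0. Without that array only a set B array is left in the group, and Il18 was higher in set A in every group. When the array set was also a block, the differences without that array were 0.73 for Il1a, 0.75 for Il1rn and -0.47 for Il18. None of these passed with or without the array. The processing enzyme gene Casp1 was not low on this array, at 372 against 185 to 319 on the other stimulated arrays of its set, and the cytokine gene Tnf was the lowest of all stimulated arrays there, at 48.6.

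**Figure D3:**
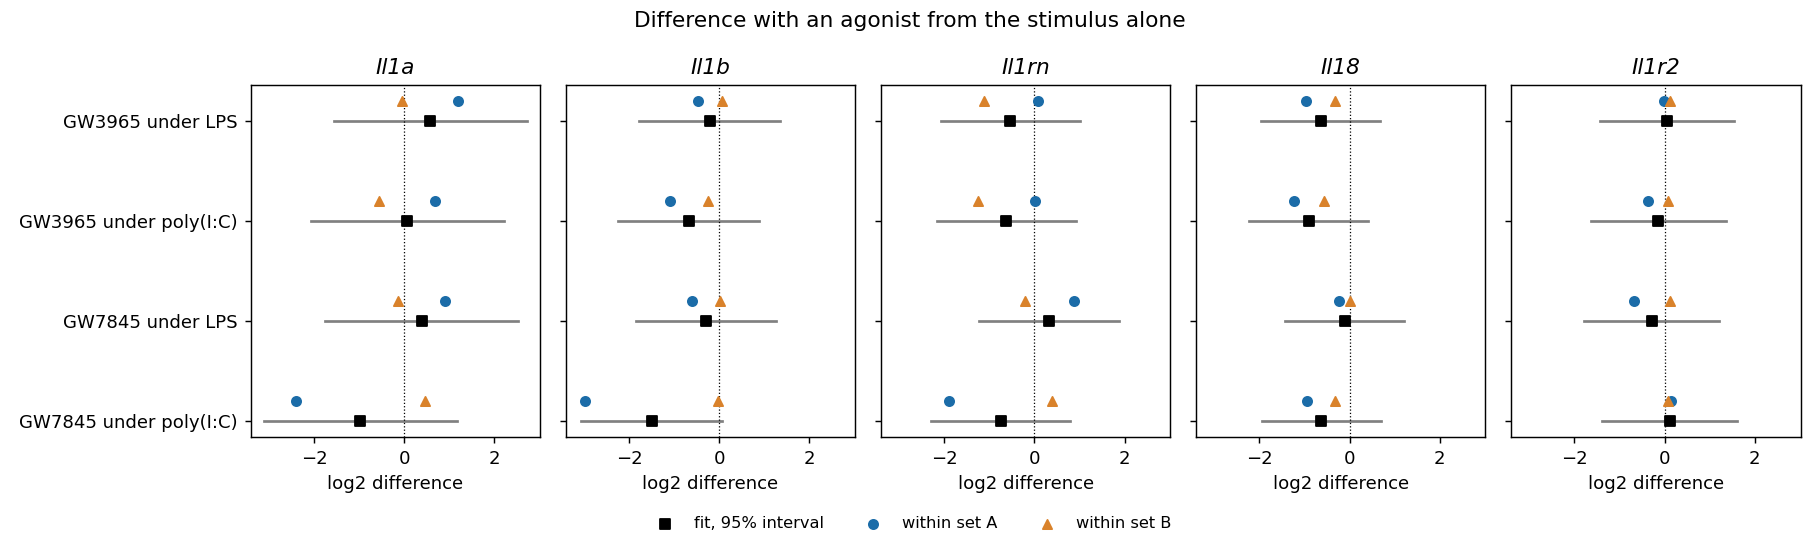
Log2 difference of agonist plus stimulus from the stimulus alone, one panel per gene, with limma's 95% interval and the within-set differences. All 20 intervals include 0. The set A and set B values of GW7845 with poly(I:C) lie apart for Il1a (-2.40 and 0.46), Il1b (-2.98 and -0.03) and Il1rn (-1.89 and 0.40).

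Between the agonists, with LPS, Il1rn was higher with GW7845 (155 and 113) than with GW3965 (88.9 and 60.0). The within-set differences were 0.80 and 0.91. The mean difference was 0.86 (95% interval -0.69 to 2.41, adjusted p = 1), where limma called 0.0104% of probes. With poly(I:C) the same difference was -0.12, with -1.91 in set A and 1.66 in set B, and 1.42 without GW7845 + poly(I:C) 1; limma called 0.0417% of probes there. No member passed in either comparison. Doses are not given, so these are differences between treatments as applied. Whether an agonist's effect differed between the stimuli was tested as an interaction: none of the 5 genes passed and limma called 0 of 9584 probes for either agonist, with 29 and 46 probes at an unadjusted p under 0.05 for GW3965 and GW7845 and 274 and 281 in the array-set fit.

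The other genes of the pathway were taken from 4 lists. Over all probes tested, limma called 7.8% with LPS (5.21% higher) and 8.86% with poly(I:C) (6.08% higher). The array-set fit called 17.8% and 18.7%. Among receptors and binding proteins, of 6 genes measured of 10 listed, 1 was called higher and 1 lower with each stimulus. Their median was 0.37 with LPS and 0.30 with poly(I:C), beside 0.06 and 0.10 over all probes. Il18bp, the secreted protein that binds and neutralises IL-18, went from 2.83 and 3.51 to 19.3 and 14.7 with LPS and to 14.0 and 18.3 with poly(I:C). It rose by 2.42 (SE 0.33, adjusted p = 0.00025) and 2.34. Sigirr, a receptor of the family that dampens signalling, went from 4.68 and 2.88 to 0.568 and 0.429 with LPS and 0.430 and 0.363 with poly(I:C). It fell by 2.89 (adjusted p = 0.00097) and 3.22 on the log2 scale. The stimulated values of both genes lay outside the untreated range on all 12 arrays. The receptor Il1r1 differed by 0.32 (adjusted p = 0.95) and 0.38, and Il1rap by 0.98 (adjusted p = 0.49) and 0.99, without passing.

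Of the other ligands, 2 of the 10 symbols listed had a probe. Il1f6, an IL-36 ligand, had untreated values of 0.164 and 0.0415, LPS values of 1.23 and 0.592 and poly(I:C) values of 2.62 and 0.945. It rose by 3.01 with LPS (adjusted p = 0.0074) and 3.89 with poly(I:C) (adjusted p = 0.0010), and both sizes are approximate, since 1 untreated array lay below the floor of 0.0686 (2.31 to 3.64 and 3.13 to 4.63 over the settings tried). With LPS the call was lost without LPS 1 (2.48, adjusted p = 0.09) or untreated 2 (2.38, adjusted p = 0.082). Il1f5, an IL-36 receptor antagonist, differed by 1.17 and 0.82, without passing.

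In the list of IL-1 receptor signalling, 14 of 20 genes were measured, 7 were called higher with LPS and 8 with poly(I:C), and none lower (medians 1.29 and 1.36, beside 0.06 and 0.10 over all probes). The adaptor Myd88 rose by 1.98 (adjusted p = 9e-04) and 2.54. The NF-κB inhibitor Nfkbia rose by 3.47 (adjusted p = 0.0064) and 3.83, and its relative Nfkbiz, which acts on NF-κB in the nucleus, by 3.50 and 4.14. The Nfkbiz sizes are approximate, since 1 of its untreated arrays lay below the floor, and were 2.55 to 4.17 and 3.12 to 4.73 over the settings tried. The ubiquitin ligase Peli1, which acts on Irak kinases, rose by 3.51 (adjusted p = 0.00054) and 4.02. Rela rose by 1.99 and 2.13, Ikbkg by 1.69 and 1.89, and Tab2 by 1.22 and 1.06 (adjusted p = 0.026 and 0.049). Tollip, an inhibitor of the pathway, was called with poly(I:C), at 1.60 (adjusted p = 0.038), against 1.22 with LPS (adjusted p = 0.13), and the difference between the stimuli was not called. The array-set fit also called Tollip higher (adjusted p = 0.034) and the kinase Irak1 lower (-0.90, adjusted p = 0.033, against 0.45 without the block) with LPS, for 8 higher and 1 lower. The count with LPS was 4 without LPS 1 or without untreated 2, where Tab2, Ikbkg and Nfkbia were lost. The calls of Tab2 and Tollip were fragile. With poly(I:C), Tab2 missed the threshold in 20 of 24 alternative settings, among them each of the 14 with 1 array left out (adjusted p = 0.052 to 0.27), and Tollip in 11 of 24 (adjusted p up to 0.25). With LPS, Tab2 missed it in 7 of 24.

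Among inflammasome and processing genes, 16 of 24 were measured and 3 were called higher with each stimulus, none lower. The medians were -0.14 and 0.07, beside 0.06 and 0.10 over all probes, so the list as a whole did not rise. The array-set fit called 4 higher and 1 lower with each stimulus. Casp1, which cuts the IL-1β and IL-18 precursors, went from 60.1 and 53.6 to 319 and 214 with LPS and 302 and 241 with poly(I:C). It rose by 2.20 (SE 0.39, adjusted p = 0.0020) and 2.25 (adjusted p = 0.0015). Casp4, the mouse caspase-11, rose by 3.54 (adjusted p = 0.00056) and 3.87. Mefv, which encodes pyrin, went from 2.37 and 2.73 to 57.2 and 60.7 with LPS and 41.7 and 56.8 with poly(I:C), and rose by 4.53 (adjusted p = 1.3e-06) and 4.26. Pycard, the adaptor that joins sensor to caspase, differed by -0.81 and -0.60, without passing. No gene of the 4 lists was called in any comparison of an agonist with its stimulus or between the agonists. Nlrp3 and Irak3 were not analysed here.

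**Figure D4:**
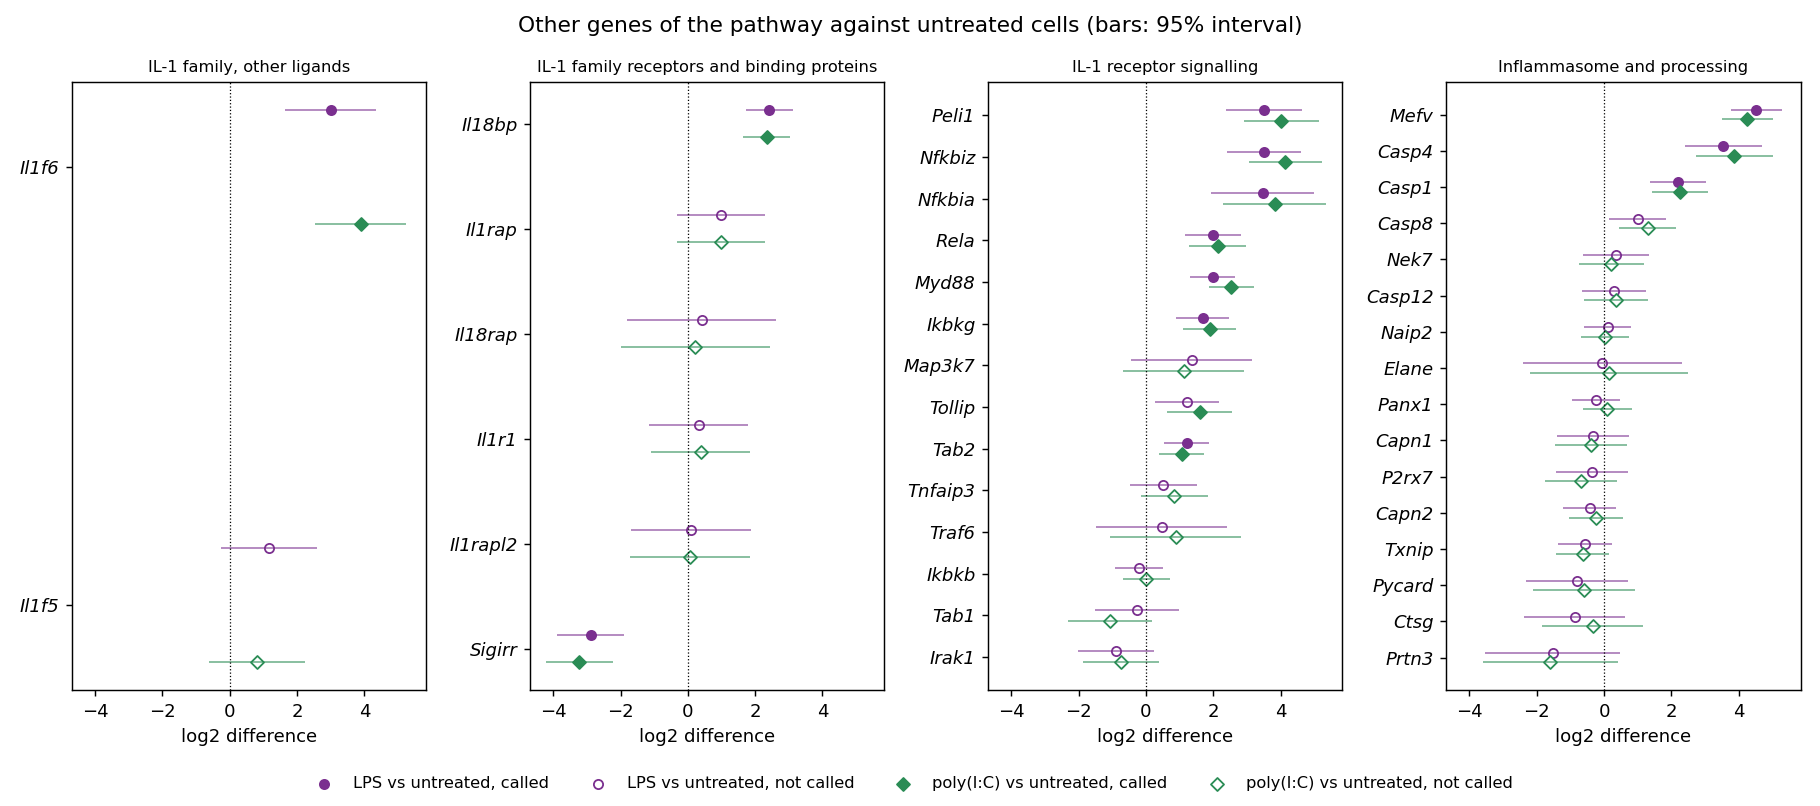
Log2 difference from untreated cells of the measured genes of the 4 pathway lists, with LPS and with poly(I:C), and limma's 95% interval as bars. Sigirr is the gene called lower with both stimuli (-2.89 and -3.22), and Mefv, Casp4, Peli1 and Nfkbiz lie between 3.50 and 4.53.

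Values of the 5 genes across arrays were compared after each set's mean was subtracted. The tested genes with the highest Pearson r to each, over 14 arrays that share the untreated-to-stimulated step, were Mapkapk2 (0.984), Prkcd (0.983) and Il31 (0.982) for Il1a, and Il12a (0.992), Tnf (0.990) and Cxcl16 (0.989) for Il1b. For Il1rn they were Serpinb2 (0.976), Tpbg (0.971) and Uba7 (0.967), and for Il18 Socs3 (0.990), Ccl5 (0.989) and Slco3a1 (0.988). For Il1r2 they were Rps6 (0.928), Vapa (0.919) and Myl6 (0.900). The Il1r2 probe had no detectable step and was not shown to be above background, so these r values do not show shared expression. Over the 12 stimulated arrays alone, r between Il1a and Il1b was 0.72, and it was -0.08 over the 11 arrays without GW7845 + poly(I:C) 1. Between Il1b and Il18 it was 0.48 and then 0.69, and between Il1a and Il1rn 0.76 and then 0.47. The likeness of Il1a to Il1b among stimulated arrays therefore rested on that array.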

How the data were processed

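The authors deposited 1 table of linear intensity per probe for 14 one-colour arrays, scaled so that each array's median was 1 (1.0007 on 1 array), per the file's values. Total RNA, 0.5 µg, was copied to biotin-labelled cRNA, per the labels' protocols. Background, scanner software and scaling method were not given in the sources used here. Values below the 5th percentile of positive values (0.0686, or -3.87 as log2) were set to it before log2 was taken. Probes with at least 2 of 14 arrays above their own 20th percentile were tested. Group means of all arrays were fitted in limma 3.58.1 (R 4.3.3, intensity trend, 7 residual degrees of freedom, or 6 with the array set as a block), two-sided, with Benjamini-Hochberg adjustment over the 9584 probes and a threshold of 0.05. Differences are log2 values of the first group minus the second. The fits were tested on simulated data with independent noise around group means. Those data held no array sets and no outlying array, so that test does not cover these features. Arrays were grouped by title. With 2 arrays in a group, their number limits the precision. The members and lists were chosen with earlier results of these data known. Named were all 5 members, the pathway genes called with a stimulus or an agonist, a few fixed pathway genes, and the 3 genes most like each member. The alternatives were the floor, pseudocount, filter, quantile normalization, trend, blocks, the groups compared alone and each array left out.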

Additional observations from a re-analysis of the deposited data

How the results depend on the processing

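Over 24 alternative settings, no difference that was called for the 5 genes changed sign, and the counts of genes called moved in 3 of 17 comparisons, all against untreated cells with 1 array left out. They ranged from 2 to 4 for GW3965 + LPS, and from 3 to 4 for GW3965 + poly(I:C) and for GW7845 + poly(I:C). Of 24 called differences, 4 lost the call in at least 1 setting. These were Il1rn in GW3965 + LPS (3.01 to 3.62 in those settings), GW3965 + poly(I:C) (3.18 and 3.27) and GW7845 + poly(I:C) (1.84 and 3.06), and Il18 in GW3965 + LPS (3.15). The cause was not tested. Other IL-1 pathway lists were run under the same settings, a choice made after seeing the data. With the array set as a block, with or without GW7845 + poly(I:C) 1, the inflammasome list gave 5 calls with LPS and 5 with poly(I:C), and under quantile normalization 5 with poly(I:C). With only the arrays of the groups compared, the list of other ligands gave 0 calls with LPS and the signalling list 5 with poly(I:C). Leaving out 1 array gave 0 to 1 calls for other ligands with LPS, 4 to 7 for signalling with LPS and 6 to 7 with poly(I:C). The labels give no pairing of arrays by replicate number. Replicate 1 was in set A in 6 of 7 groups, the exception being GW7845 + LPS. Of 21 pairs of groups, 15 correlations of replicate differences were over 0.1 and 6 were below 0 (range -0.54 to 0.67). Replicate number and array set therefore largely coincide. A replicate block gave 4 genes called in each comparison with untreated cells and 0 in the others, with 1067 and 1191 probes called for LPS and poly(I:C) in place of 748 and 849. Quantile normalization moved the median of all probes by -0.14 with LPS and -0.17 with poly(I:C), and the split of higher and lower calls to 514 and 380, and 567 and 416, from 499 and 249, and 583 and 266. It turned the sign of uncalled differences from LPS alone for Il1b (0.11 with GW3965 and 0.17 with GW7845), Il18 (0.31 with GW7845) and Il1r2 (-0.27 with GW3965). Some uncalled differences in other comparisons turned too, such as that of Il1r2 between LPS and untreated cells (-0.21). With only the arrays of the groups compared, Casp1 missed the threshold (adjusted p = 0.071 with LPS and 0.062 with poly(I:C)). Detection calls were not used, so signal over background limits Il1r2 and the untreated levels of Il1b and Il1a.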
